A study of Arabidopsis thaliana with 24 samples.

Results

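In germinating Arabidopsis thaliana seeds, 74 genes were followed whose mean transcript signals differed one way with loss of PICKLE and the opposite way with uniconazole. They were chosen by the size of these differences, without a test. The array annotation names them by locus code alone. They were selected on these same arrays, from 11930 probe sets of 1 gene with no symbol, 3 loci having been left out, of which 7837 reached a mean signal of 110 in at least 1 group. A probe set is a group of short oligonucleotides that reports 1 transcript. Each gene had a mean pkl effect and a mean uniconazole effect of at least 0.4 in size and of opposite sign, both on the scale of log2(signal + 16) used for all log2 values below. The mean pkl effect is the average of the pkl minus wild type differences in solvent and in uniconazole, and the mean uniconazole effect is the average of the treated minus untreated differences in wild type and in pkl. Of the 74 genes, 44 were higher in pkl and lower with uniconazole (the pkl-higher set), and 30 were lower in pkl and higher with uniconazole (the pkl-lower set).

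The seeds were Columbia wild type or the pkl mutant, each germinated with solvent or with uniconazole, with 6 arrays in each of the 4 groups, which the labels call biological replicates. All seeds stood on agar with Murashige and Skoog basal medium and Gamborg's vitamins under light for 24 h a day. The untreated groups received 0.01% methanol and the treated groups 10 nM uniconazole in the same methanol concentration, so all 24 arrays carry the solvent. The labels give neither the pkl allele nor the age of the seeds at harvest, and whole germinating seeds were sampled, so that fewer cells of a type and less RNA per cell cannot be told apart.

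PICKLE is a chromatin remodelling factor of the CHD3 type, known for keeping embryonic traits from persisting after germination. Uniconazole is a triazole that blocks gibberellin synthesis. Gibberellin promotes germination and cell expansion through its soluble GID1 receptors, which lead to removal of the growth-repressing DELLA proteins. The comparison of both factors asks which transcripts a loss of PICKLE and a block of gibberellin synthesis move in opposite directions.

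Median signals ran from 310.2 to 371.4 over the 24 arrays, with group means of 333 in wild type with solvent, 345 in pkl with solvent, 344 in wild type with uniconazole and 365 in pkl with uniconazole. Signals under 16 made up 9.07% to 13.0% of each array. RNA integrity was followed by the log2 ratio of 3′ to 5′ GAPDH probe sets, which averaged 0.26 ± 0.08 in wild type and 0.23 ± 0.06 in pkl with solvent, and 0.36 ± 0.06 and 0.29 ± 0.05 with uniconazole (SD, n = 6). For ubiquitin the averages were 0.70 ± 0.19, 0.63 ± 0.07, 0.80 ± 0.13 and 0.77 ± 0.11 in the same order. The GAPDH and ubiquitin ratios were thus lowest in pkl with solvent and highest in wild type with uniconazole, the groups at the ends of both sets, while the actin ratio averaged 0.25 in wild type and 0.29 in pkl with solvent, and 0.33 and 0.31 with uniconazole. Replicate 2 of wild type with uniconazole had the highest ratios of the 24 arrays (0.45 for GAPDH, 0.58 for actin and 1.03 for ubiquitin) and the lowest median signal. Without that array the rule selected 35 and 36 genes, holding 35 of the 44 and 29 of the 30. With the GAPDH and actin ratios as covariates, ubiquitin not included, it selected 57 and 34, holding 35 and 26. All 74 genes kept the sign of both effects in each case. Of 11 markers of germinating seed, 4 had a named probe set. ICL, the isocitrate lyase of oil mobilisation, had group means of 36255 to 39080, and EXPA8, an expansin that was lower with uniconazole in both genotypes in the limma fit, had 1813 to 4333. OLEO3, an oil-body protein, had means of 2068 in wild type and 1384 in pkl with solvent, and of 3827 and 4667 with uniconazole. It passed the limma test at an adjusted p of 0.05 as lower in pkl with solvent, as higher in pkl with uniconazole, and as higher with uniconazole in both genotypes, with a limma adjusted p = 0.00371 for the difference between these pkl effects. PORB, a protochlorophyllide reductase of greening, had means of 5543 and 2365 with solvent and of 6226 and 3989 with uniconazole. It passed as lower in pkl in both media, and as higher with uniconazole in pkl but not in wild type. The part of these marker differences in the results below was not tested.

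The 74 genes were 0.944% of the 7837 locus-only probe sets past the minimum signal. Effects in the same direction were more frequent under the same cutoffs, with 200 probe sets higher under both factors and 81 lower under both. A mean pkl effect of at least 0.4 in size was present in 999 of the 7837 probe sets, and a mean uniconazole effect of that size in 1066. Among genes with a symbol, 20 of 1245 (1.61%) had opposed effects, 9 of them higher in pkl and 11 lower.

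**Figure D1:**
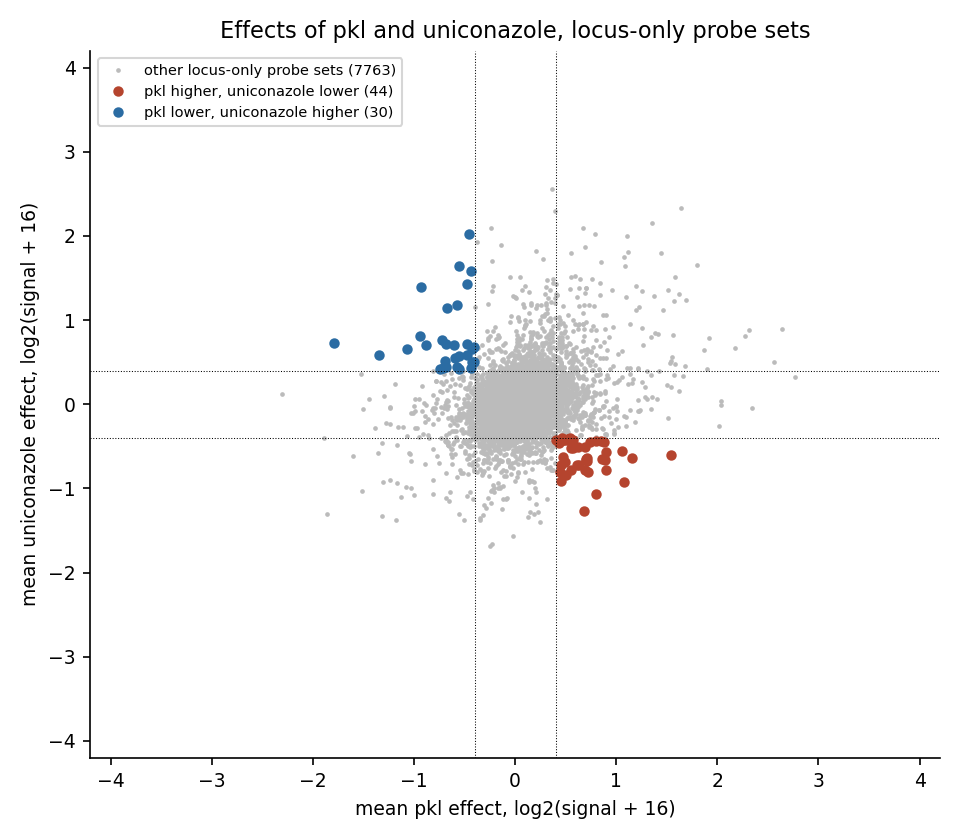
Mean pkl effect (x axis) against mean uniconazole effect (y axis), both as differences of log2(signal + 16), for the 7837 locus-only probe sets past the minimum signal. Dotted lines mark the cutoffs of 0.4, red points the 44 genes of the pkl-higher set and blue points the 30 of the pkl-lower set. The upper right quadrant, higher under both factors, holds more probe sets past the cutoffs (200) than the opposed quadrants do.

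In the pkl-higher set the mean pkl effect ran from 0.41 to 1.54 (median 0.63) and the mean uniconazole effect from -1.27 to -0.40 (median -0.61). These values chose the genes and are given as a description. By group mean signal, pkl with solvent was the highest group and wild type with uniconazole the lowest in 43 of the 44 genes, AT5G20560 being the exception. When each array is summarised by the mean over the 44 genes of log2(signal + 16) minus the gene's own mean, the wild type arrays with solvent lay between -0.19 and 0.10 (median -0.03). The pkl arrays with solvent lay between 0.46 and 0.75 (median 0.69), the wild type arrays with uniconazole between -0.91 and -0.49 (median -0.58, and none below -0.69 without replicate 2), and the pkl arrays with uniconazole between -0.15 and 0.11 (median 0.03). The pkl arrays with solvent and the wild type arrays with uniconazole overlapped no other group. Wild type with solvent and pkl with uniconazole shared a range. Effects of opposite sign are what the rule asks for, so the group order and this separation were largely fixed in advance. Nothing is read from them.

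The pkl-lower set was the mirror image in its group order, as its selection requires. The mean pkl effect ran from -1.79 to -0.41 (median -0.59), and the mean uniconazole effect from 0.42 to 2.02 (median 0.67). Wild type with uniconazole had the highest group mean and pkl with solvent the lowest in 29 of the 30 genes, AT3G55720 being the exception. The array means over the 30 genes lay between -0.29 and 0.09 (median -0.01) in wild type with solvent and between -0.92 and -0.52 (median -0.76) in pkl with solvent. With uniconazole they lay between 0.56 and 0.88 (median 0.71) in wild type and between -0.12 and 0.23 (median 0.06) in pkl. Here too the untreated wild type and the treated mutant were the pair of groups that overlapped, as the selection favours.

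**Figure D2:**
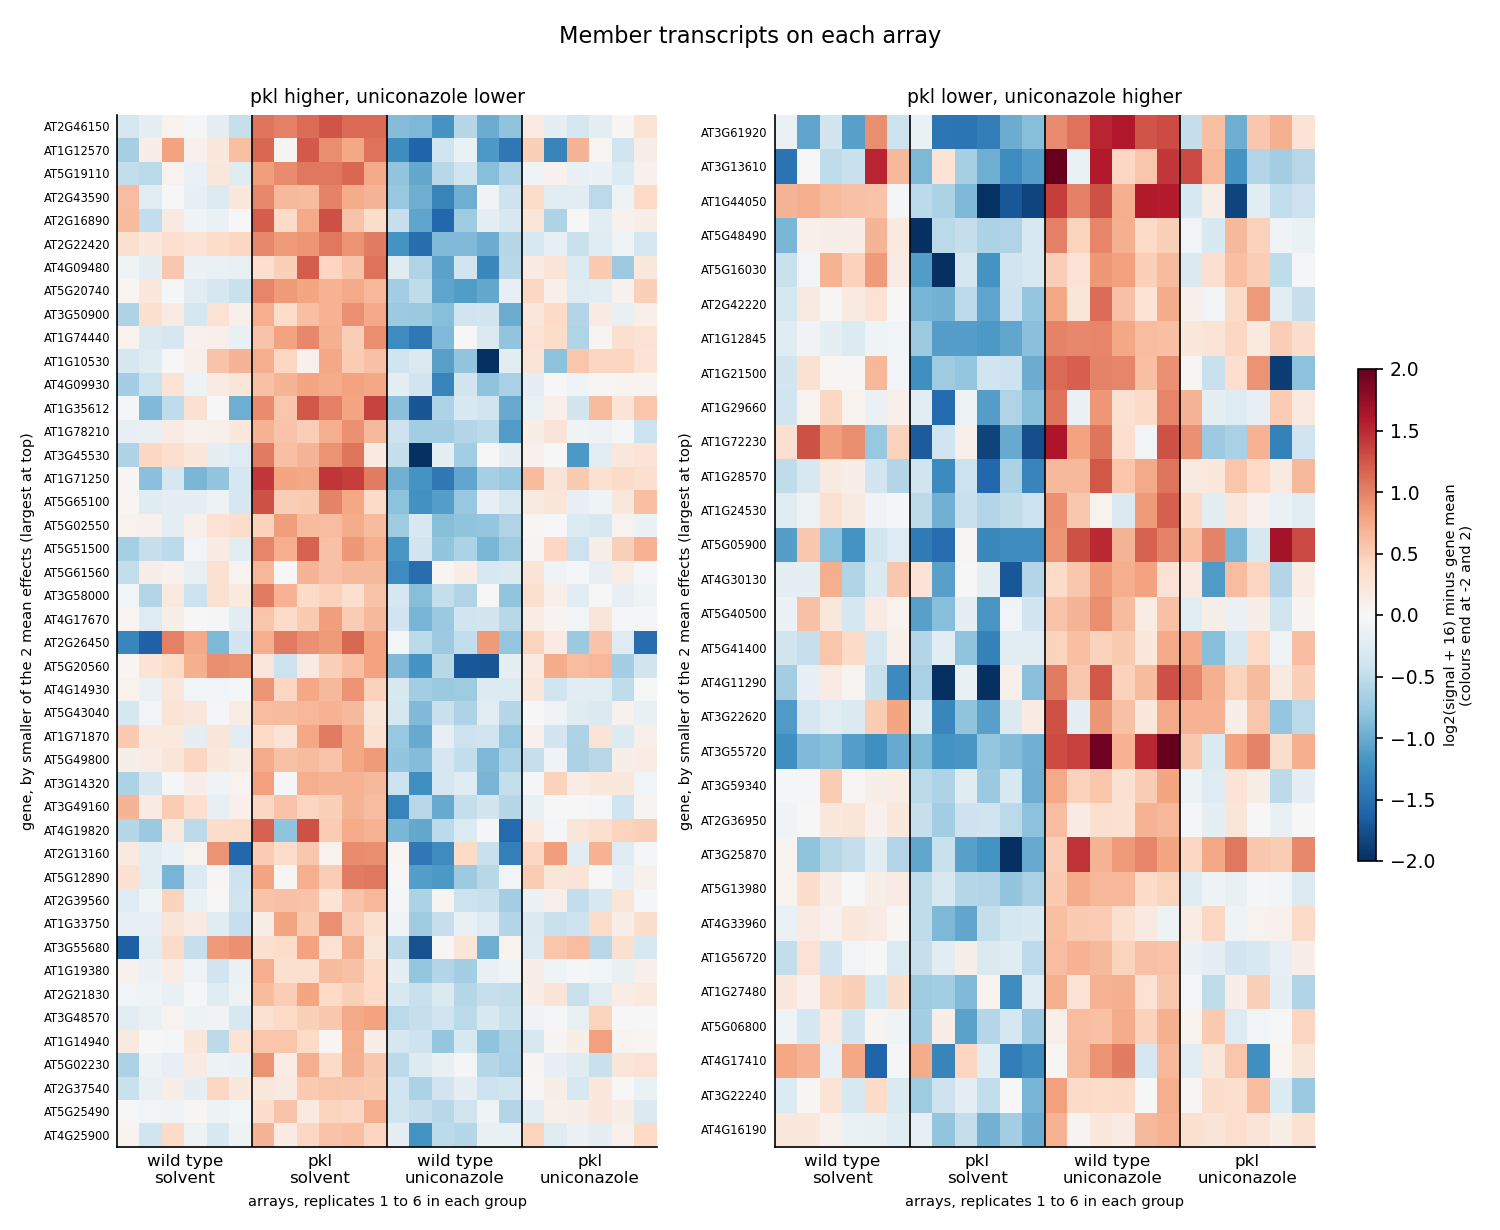
Each of the 74 genes (one line of cells per gene, ordered by the smaller of its 2 mean effects) on each of the 24 arrays, as log2(signal + 16) minus the gene's mean over all arrays. Red cells are above the gene's mean and blue cells below it; pkl with solvent is red on the left and blue on the right, wild type with uniconazole the reverse, and the outer groups stay near the mean.

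AT2G46150 had the largest balanced opposition in the pkl-higher set, with a mean pkl effect of 1.08 and a mean uniconazole effect of -0.93. Its signals with solvent ran from 314 to 462 (median 381) in wild type and from 900 to 1074 (median 976) in pkl. With uniconazole they ran from 185 to 291 (median 230) in wild type and from 340 to 535 (median 416) in pkl. No array of one group reached the range of the group it is compared with, in either genotype or treatment, while untreated wild type and treated pkl overlapped. The pkl mean was 2.53-fold the wild type mean with solvent and 1.85-fold with uniconazole.

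AT2G22420 had the largest mean uniconazole effect of the set, -1.27, beside a mean pkl effect of 0.68. With solvent its signals ran from 861 to 998 (median 935) in wild type and from 1349 to 1564 (median 1431) in pkl. With uniconazole they ran from 251 to 492 (median 380) in wild type and from 542 to 695 (median 607) in pkl. All 4 groups were separate, and treated pkl stayed below untreated wild type, at -0.59 ± 0.10 (SE). AT4G17670 was the other gene of the set whose groups were separate in all 4 comparisons, and it was picked out after its values were seen. Its signals with solvent ran from 1038 to 1351 (median 1232) in wild type and from 1639 to 2239 (median 1817) in pkl, and with uniconazole from 645 to 962 (median 893) and from 1208 to 1483 (median 1259). Its difference between treated pkl and untreated wild type was 0.11 ± 0.09, and those groups overlapped.

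AT5G19110 resembled AT2G46150, with a mean pkl effect of 0.90 and a mean uniconazole effect of -0.78. Its signals with solvent ran from 340 to 583 (median 435) in wild type and from 849 to 1121 (median 1018) in pkl, and with uniconazole from 236 to 372 (median 299) and from 411 to 532 (median 467). The pkl arrays were separate from wild type in both media, while the treated and untreated wild type arrays overlapped. AT2G43590 was the brightest gene of the set, at 2457 to 4611 (median 2826) in wild type and 4625 to 5943 (median 4880) in pkl with solvent. With uniconazole it stood at 1174 to 2841 (median 1641) in wild type and 2059 to 3953 (median 2681) in pkl. Its pkl arrays with solvent were above every wild type array with solvent, by 4625 against 4611 at the nearest, and the groups with uniconazole overlapped.

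**Figure D3:**
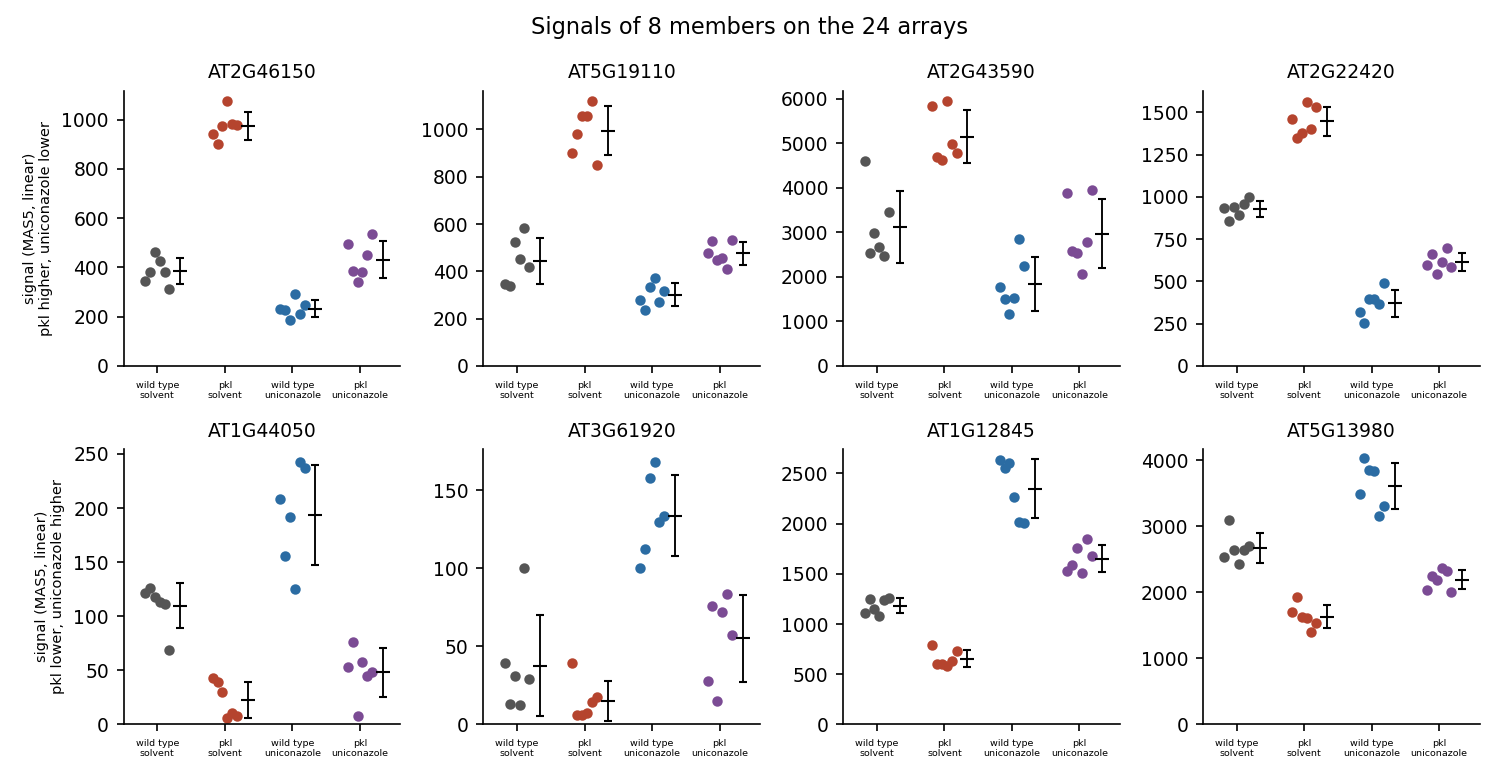
Deposited signals (y axis, linear, from 0) of 4 genes of the pkl-higher set (top) and 4 of the pkl-lower set (bottom) in the 4 groups (x axis). Points are single arrays, and bars give the mean and SD of 6 arrays. In the top panels pkl with solvent is highest and wild type with uniconazole lowest, and in the bottom panels the order is turned around, with AT1G44050 and AT3G61920 near the background level in pkl with solvent.

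The remaining genes of the 15 with the largest opposition in the pkl-higher set had smaller or noisier differences. AT5G20740 stood at 753 to 1202 (median 949) in wild type and 1645 to 2041 (median 1775) in pkl with solvent. With uniconazole it stood at 465 to 912 (median 564) and 862 to 1436 (median 1102), and only the untreated genotypes and the pkl treatments were separate. AT1G78210 had a mean pkl effect of 0.63 and a mean uniconazole effect of -0.72 and signals up to 2485. AT2G16890 had effects of 0.70 and -0.78, and AT3G50900 effects of 0.70 and -0.66. These genes had all group means above 200 and overlapping groups in at least 1 comparison.

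The dimmer genes of the 15 were AT1G12570, AT4G09480, AT1G74440, AT1G10530, AT4G09930, AT1G35612 and AT3G45530. Their highest group means lay between 113 and 248. AT1G35612, annotated in RefSeq as a pseudogene, had the largest mean pkl effect of the 15, 1.16, beside a mean uniconazole effect of -0.63. Its signals ran from 50.6 to 145 (median 93.7) in wild type and from 177 to 317 (median 240) in pkl with solvent, and from 23.7 to 90.2 (median 63.1) and 85.5 to 186 (median 133) with uniconazole. Wild type and pkl were separate with solvent and overlapped with uniconazole. AT4G09480, also annotated as a pseudogene, had effects of 0.71 and -0.67.

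AT1G12570 had a mean uniconazole effect of -1.06, but its signals were close to background. The 95th percentile of the bacterial control probe sets, 54.9, is taken here as the background level. AT1G12570 stood at 6.5 to 46 (median 13.8) in wild type with uniconazole, where its mean of 20.9 lay under that level, and its groups overlapped in every comparison. Its treated wild type mean was therefore at least 1.20-fold lower than the untreated one. AT4G09930 also had a mean under the level in wild type with uniconazole, and its pkl mean with solvent was 1.90-fold the wild type mean.

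The largest mean pkl effect of the pkl-higher set, 1.54, belonged to AT1G71250, a gene picked out after its values were seen. It rose from a range of 182 to 363 (median 239) in wild type to 620 to 990 (median 848) in pkl with solvent, and from 122 to 218 (median 170) to 430 to 562 (median 460) with uniconazole. The genotypes were separate in both media, at 3.28-fold and 2.79-fold. Its mean uniconazole effect was -0.60, and treated pkl stood above untreated wild type by 0.94 ± 0.16.

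AT4G14930, AT4G25900 and AT1G19380 complete the brightest genes of the set, with signals of up to 3572, 3269 and 2249. Their mean pkl effects were 0.49, 0.54 and 0.49, and their mean uniconazole effects were -0.69, -0.40 and -0.42. The 24 genes of the set not covered by the naming rule had mean pkl effects of 0.43 to 1.54 (median 0.55) and mean uniconazole effects of -0.91 to -0.41 (median -0.51). Among these, AT3G48570 has another probe set, which had signs in common but smaller effects, at 0.28 ± 0.06 for pkl against 0.58 ± 0.07 and -0.25 ± 0.06 for uniconazole against -0.42 ± 0.07 (SE). AT5G51500 and AT5G65100 had larger pkl effects, 1.06 and 0.90, beside uniconazole effects of -0.55 and -0.56. In AT5G49800 the uniconazole effect was the larger, -0.91 beside 0.45 for pkl, and treated pkl stayed below untreated wild type, at -0.46 ± 0.13. These 3 genes were picked out after their values were seen. AT2G13160, a pseudogene, is measured by a probe set marked by the manufacturer as open to cross-hybridisation, so its values are uncertain.

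In the pkl-lower set AT1G12845 was the clearest case, with a mean pkl effect of -0.67 and a mean uniconazole effect of 1.14. Its signals with solvent ran from 1084 to 1263 (median 1194) in wild type and from 581 to 788 (median 618) in pkl. With uniconazole they ran from 2008 to 2635 (median 2411) in wild type and from 1505 to 1846 (median 1635) in pkl. All 4 groups were separate, and treated pkl was above untreated wild type by 0.47 ± 0.08. The wild type mean was 1.80-fold the pkl mean with solvent and 1.42-fold with uniconazole.

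AT5G13980 was the brightest gene of the pkl-lower set. Its signals ran from 2434 to 3099 (median 2635) in wild type and from 1398 to 1929 (median 1617) in pkl with solvent, and from 3152 to 4037 (median 3660) and from 1997 to 2367 (median 2215) with uniconazole. Its 4 groups were separate as well, and treated pkl remained below untreated wild type, at -0.28 ± 0.07. The wild type mean was 1.64-fold the pkl mean with solvent and 1.65-fold with uniconazole.

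AT1G44050 had the largest mean pkl effect of all 74 genes in size, -1.79, beside a mean uniconazole effect of 0.73. With solvent its signals ran from 68.5 to 126 (median 115) in wild type and from 5.8 to 42.7 (median 20.4) in pkl, and with uniconazole from 125 to 243 (median 200) and from 7.9 to 76.6 (median 50.9). The genotypes were separate in both media. Both pkl means lay under the background level, so pkl was at least 2.00-fold lower with solvent and at least 3.53-fold lower with uniconazole, and no fold is given for uniconazole within pkl.

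AT3G61920 and AT3G13610 had the largest balanced opposition of the pkl-lower set. AT3G61920 stood at 100.4 to 168.3 (median 132) in wild type with uniconazole, and at 12.7 to 100.2 (median 30.3) in wild type with solvent. In pkl it stood at 6 to 39.3 (median 10.95) with solvent and at 14.8 to 83.4 (median 64.7) with uniconazole. The treated wild type arrays were above all arrays of the other 3 groups, and both untreated means were under the background level. AT3G13610 carries the synonym F6′H1 in RefSeq, the name of a feruloyl-CoA hydroxylase of coumarin synthesis. It ranged from 4.2 to 146 (median 32.5) in untreated wild type, from 7.4 to 52 (median 13.4) in untreated pkl, from 35.3 to 222 (median 99.9) in treated wild type and from 8.7 to 124 (median 21.8) in treated pkl. All of its groups overlapped, and 3 of its 4 group means were under the background level.

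AT1G28570 had effects of -0.57 and 1.18, and its signals ran from 223 to 394 (median 267) in wild type and 106 to 258 (median 174) in pkl with solvent. With uniconazole they ran from 512 to 835 (median 570) and from 392 to 545 (median 428), so that only the treatments were separate. AT2G42220 had effects of -0.68 and 0.72, AT1G24530 effects of -0.56 and 0.57, and AT1G29660 effects of -0.61 and 0.71. In AT2G42220 and AT1G24530 the untreated pkl arrays lay below all untreated wild type arrays. AT1G29660 had no separate pair of groups.

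The other genes of the 15 with the largest opposition in this set had highest group means between 111 and 313. AT1G72230 had a mean pkl effect of -1.35, AT1G21500 of -1.07, AT5G16030 of -0.88, AT5G48490 of -0.72 and AT5G40500 of -0.69, with mean uniconazole effects of 0.52 to 0.76. AT5G05900 and AT4G30130 had mean pkl effects of -0.55 and -0.60 and mean uniconazole effects of 1.64 and 0.55. Untreated pkl means were under the background level in AT1G72230 and AT4G30130, so pkl with solvent was at least 1.98-fold and at least 1.31-fold lower. AT5G05900 was under that level in both untreated groups, and its treated means were at least 2.66-fold higher in wild type and at least 2.10-fold higher in pkl. AT2G36950 and AT4G16190, the other bright genes of the set, reached 2453 and 4263 in treated wild type. AT2G36950 had effects of -0.58 and 0.44, and AT4G16190 of -0.41 and 0.68. The 10 genes outside the naming rule had mean pkl effects of -0.74 to -0.42 and mean uniconazole effects of 0.42 to 2.02. Among these, AT3G25870 and AT4G11290, picked out after their values were seen, combined small pkl effects of -0.43 and -0.47 with uniconazole effects of 1.58 and 1.43. AT3G25870 stood at 104 to 202 (median 131) in wild type and 33.7 to 138 (median 84.9) in pkl with solvent, and at 280 to 555 (median 354) and 266 to 422 (median 318) with uniconazole. Treated and untreated arrays of AT3G25870 were separate in both genotypes, while the genotypes overlapped in both media.

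Each mean effect averages a pair of simple differences. In the pkl-higher set the median pkl difference was 0.67 with solvent and 0.63 with uniconazole, and the median uniconazole difference was -0.54 in wild type and -0.62 in pkl. In the pkl-lower set the medians were -0.69 and -0.53 for pkl and 0.58 and 0.73 for uniconazole. All 4 simple differences had the sign of the mean effect in 42 of 44 and 29 of 30 genes. The exceptions, named for that reason, were AT5G20560 with a pkl difference of -0.23 ± 0.29 with solvent, AT2G26450 with a uniconazole difference of 0.13 ± 0.40 in wild type, and AT3G55720 with a pkl difference of 0.07 ± 0.22 with solvent.

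The rule used these differences, so the share of genes passing the limma test at an adjusted p of 0.05 is printed beside the share over all 22746 probe sets and nothing is read from it. In the pkl-higher set, 33 genes passed as higher in pkl with solvent (6.78% of all probe sets) and 32 with uniconazole (9.87%). As lower with uniconazole, 27 passed in wild type (7.43%) and 34 in pkl (10.6%). In the pkl-lower set, 17 genes passed as lower in pkl with solvent (4.97%) and 13 with uniconazole (8.69%). As higher with uniconazole, 16 passed in wild type (9.07%) and 19 in pkl (11.4%). All 4 differences passed in 20 genes of the pkl-higher set (0.365% of all probe sets in those directions) and in 6 of the pkl-lower set (0.308%). Some genes passed in none of the 4, among them AT3G55680 of the pkl-higher set and AT3G13610, AT4G30130 and AT4G17410 of the pkl-lower set.

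By the plainer measure of whether 6 arrays overlap another 6, the pkl and wild type arrays were separate with solvent in 22 and 9 genes of the pkl-higher and pkl-lower sets (6.29% of all probe sets in either direction). With uniconazole they were separate in 9 and 7 genes (8.99%). Treated and untreated arrays were separate in 11 and 9 genes in wild type (7.18%), and in 22 and 11 genes in pkl (12.8%). Groups were separate in all 4 comparisons in AT2G46150, AT2G22420 and AT4G17670 of the pkl-higher set (0.0967% of all probe sets in those directions) and in AT1G12845 and AT5G13980 of the pkl-lower set (0.0352%).

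**Figure D4:**
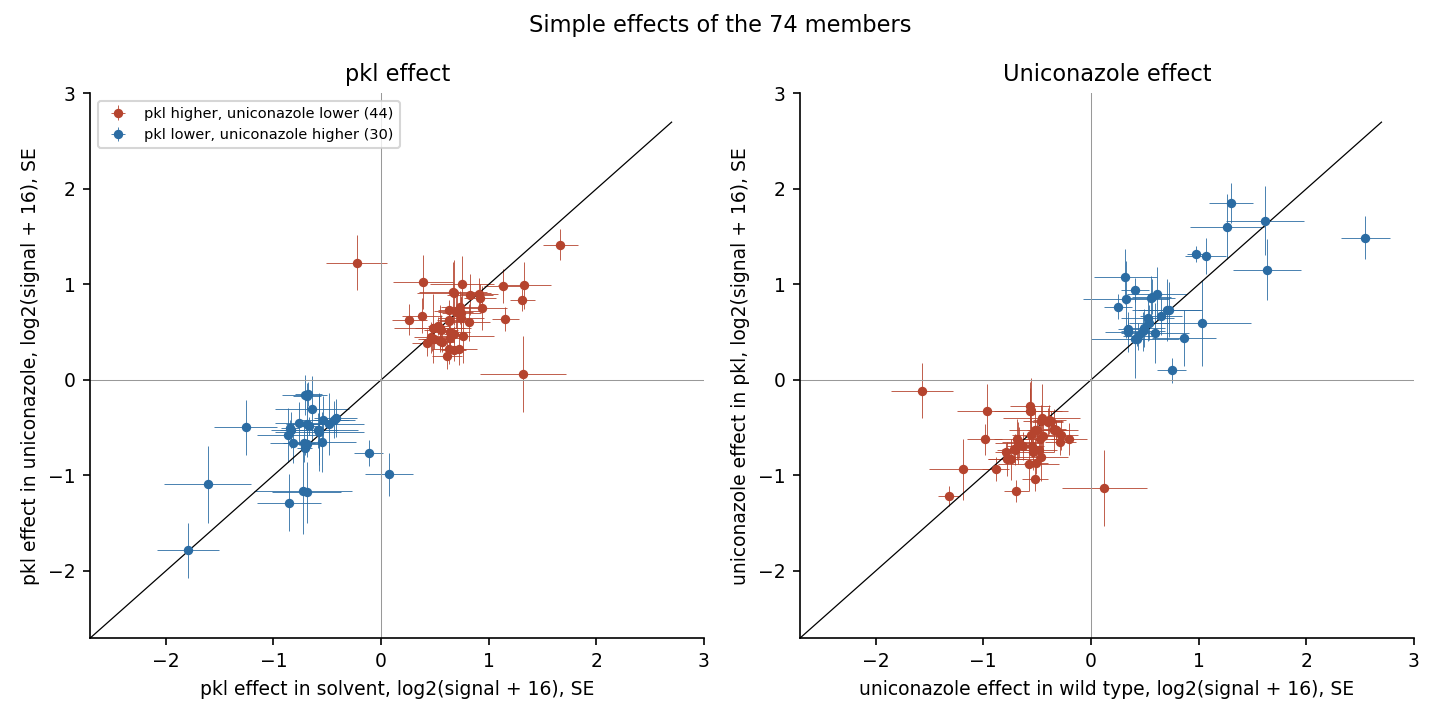
Left, the pkl difference with solvent (x axis) against that with uniconazole (y axis); right, the uniconazole difference in wild type against that in pkl, as differences of log2(signal + 16) with SE bars. Red points are the pkl-higher set (44), blue points the pkl-lower set (30), and the diagonal marks equal differences; AT5G20560, AT2G26450 and AT3G55720 lie on or across a zero line.

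The difference between treated pkl and untreated wild type went either way in both sets. It is the sum of both mean effects and is therefore also fixed in part by the rule. It ran from -0.59 to 0.94 (median 0.06) in the pkl-higher set, with 29 genes above 0 and 15 below. In the pkl-lower set it ran from -1.06 to 1.57 (median 0.04), with 17 above and 13 below. The unadjusted 95% interval held 0 in 37 of the 44 genes, lay above 0 in 3 and below 0 in 4. In the pkl-lower set it held 0 in 21 of the 30, lay above 0 in 7 and below 0 in 2. The median over all locus-only probe sets past the minimum was 0.03. AT2G22420 and AT1G71250 mark the ends in the pkl-higher set, and AT1G44050 and AT3G55720 those in the pkl-lower set. AT3G55720, at 1.57 ± 0.22, was under the background level in untreated wild type.

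The interaction, the pkl difference with uniconazole minus that with solvent, is the contrast that the effect cutoffs did not use. The signal minimum did use the highest group mean, which enters the interaction. In dim genes the interaction is therefore not free of the selection. In the limma fit, 0 of the 74 genes passed an adjusted p of 0.05, where 32 of all probe sets did (0.141%, with 0.0703% in the higher and 0.0703% in the lower direction), 8 of them among the 7837 locus-only probe sets. At an unadjusted p of 0.05, 10 of the 74 genes passed, 13.5% against 7.68% of all probe sets. None of the 74 passed the adjusted threshold under the other offsets and scalings tried, with the replicate block or with any 1 array left out. The 95% interval of a single gene, not adjusted for the number of probe sets, reached to either side of the estimate by a median of 0.48 in the pkl-higher set (0.27 to 1.15). In the pkl-lower set the median was 0.63 (0.21 to 1.32). An interaction of that size or less in a typical gene could not be told from 0 even without adjustment. The adjusted threshold asks for more, as AT1G56720 at -0.65 ± 0.19 (SE) did not pass it (limma adjusted p = 0.243). Larger interactions could therefore also be missed. The estimate lay within 0.5 of 0 in 40 of 44 and 23 of 30 genes (90.9% and 76.7%), against 94.2% of the locus-only probe sets.

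The sign of the interaction was uneven in both sets. It was below 0 in 30 of the 44 genes of the pkl-higher set (median -0.05) and above 0 in 23 of the 30 genes of the pkl-lower set (median 0.06), against 52.7% above 0 over the locus-only probe sets. In each set the more frequent sign is the one in which the pkl difference was smaller with uniconazole than with solvent. The split depended on the scaling. With the offset raised to 64, 16 of the 30 genes of the pkl-lower set were above 0, and with arrays scaled to 1 median or quantile normalised 18 were. In the pkl-higher set between 27 and 34 of the 44 genes were below 0 under those settings and an offset of 4. Over the locus-only probe sets the share above 0 ran from 45.5% to 53.0% under these settings. Leaving out genes with a group mean under the background level gave 29 of 40 below 0 and 19 of 22 above 0. Without replicate 2 of treated wild type the counts were 33 of 44 below 0 and 21 of 30 above 0. Genes on the same arrays are not independent, and no test is attached to these counts.

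**Figure D5:**
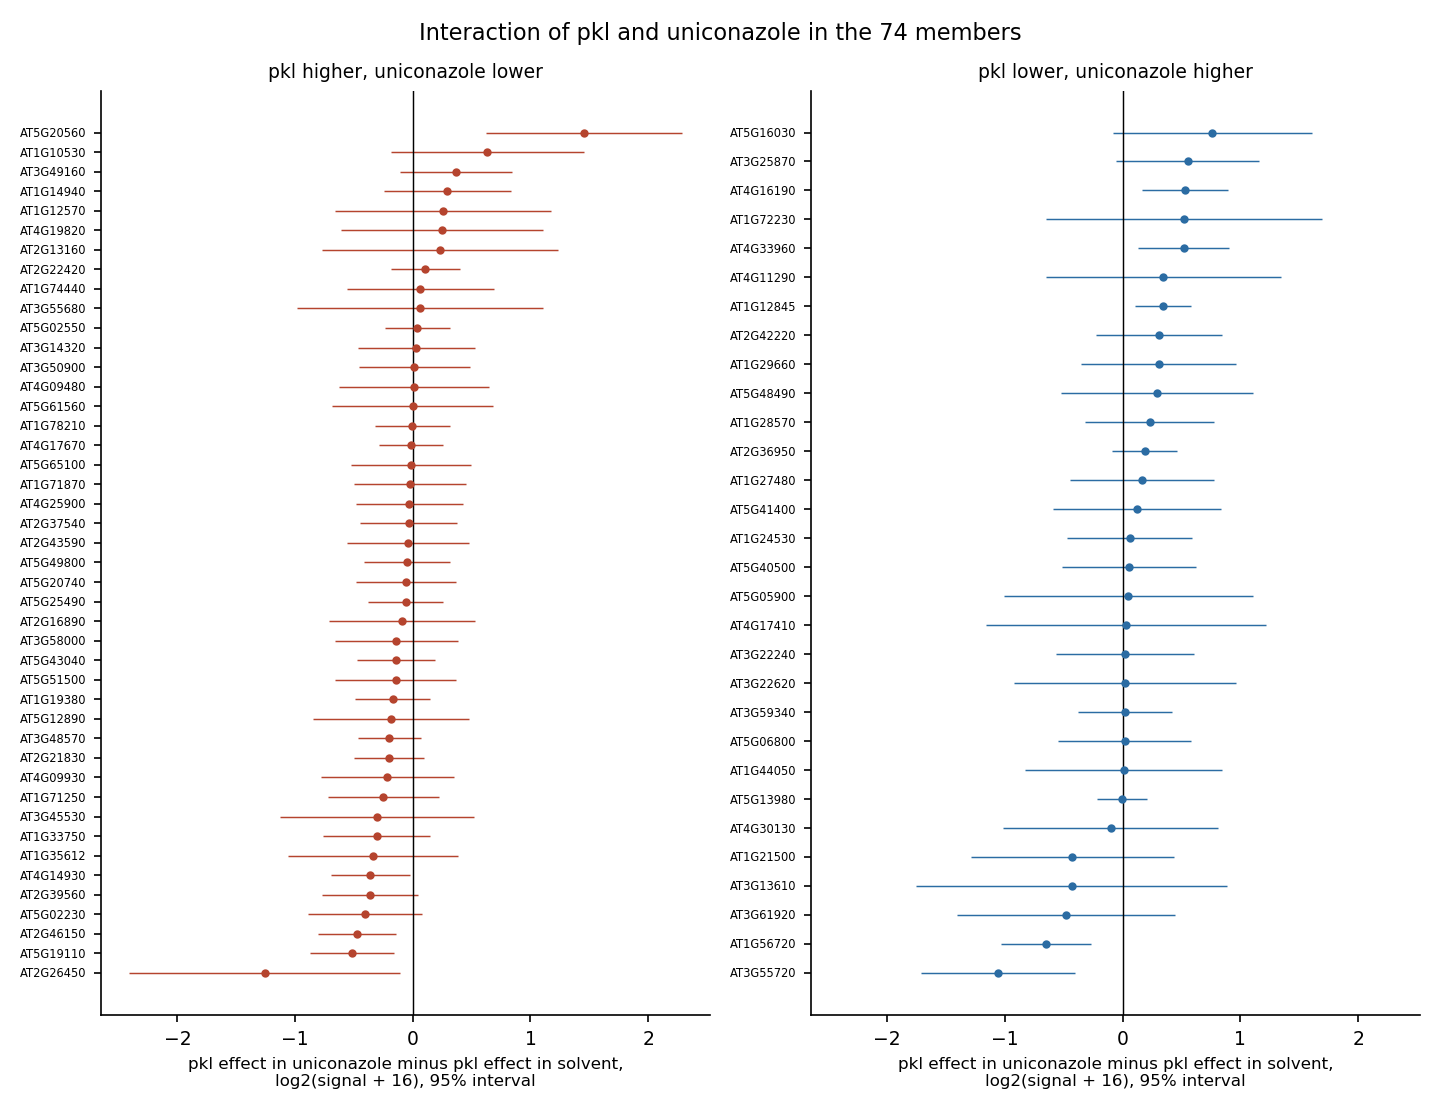
Interaction of each of the 74 genes (x axis, the pkl difference with uniconazole minus that with solvent, in log2(signal + 16), with its 95% interval), ordered by its signed value. Most intervals include 0, and the points lean to the left of 0 in the pkl-higher set and to the right in the pkl-lower set. AT2G26450 and AT5G20560 are at the low and high ends of the pkl-higher set, and AT3G55720 is at the low end of the pkl-lower set.

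The genes with the lowest unadjusted p for the interaction are named for that reason. AT5G20560 had an interaction of 1.46 ± 0.40 (SE, limma adjusted p = 0.219). Its signals ran from 78.8 to 160 (median 119) in untreated wild type, 52.4 to 146 (median 103) in untreated pkl, 12.1 to 64.6 (median 29.5) in treated wild type and 41.7 to 139 (median 108) in treated pkl. Treated wild type was separate from untreated wild type, with a mean under the background level and at least 2.21-fold lower, while the pkl arrays overlapped between treatments. AT3G55720 had an interaction of -1.06 ± 0.32 (limma adjusted p = 0.278). It stood at 6.2 to 12.8 in untreated wild type and 6.7 to 14.5 in untreated pkl, both under the background level, so its pkl difference with solvent has no measured size. With uniconazole it stood at 68.2 to 224 (median 125) in wild type and 26.6 to 87.8 (median 64.4) in pkl. Of the group means of AT3G55720, only treated wild type, at 139.8, reached the signal minimum. In AT5G20560 only untreated wild type did, at 121.5.

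AT1G56720 was free of those limits, as all its group means were above 200. It stood at 175 to 311 (median 225) in untreated wild type, 171 to 277 (median 209) in untreated pkl, 350 to 417 (median 394) in treated wild type and 189 to 278 (median 223) in treated pkl. Only treated wild type was apart from the other 3 groups. Its pkl difference was -0.11 ± 0.13 with solvent and -0.76 ± 0.13 with uniconazole, and its interaction was -0.65 ± 0.19 (limma adjusted p = 0.243).

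In the pkl-higher set, AT5G19110 and AT2G46150 had interactions of -0.52 ± 0.17 and -0.47 ± 0.16 (limma adjusted p = 0.384 and 0.394), with larger pkl differences with solvent (1.16 and 1.31) than with uniconazole (0.64 and 0.84). AT4G14930 had -0.36 ± 0.16 and AT2G26450 -1.26 ± 0.56 (limma adjusted p = 0.589 and 0.582). In the pkl-lower set, AT4G16190, AT4G33960 and AT1G12845 had interactions of 0.53 ± 0.18, 0.52 ± 0.19 and 0.34 ± 0.12 (limma adjusted p = 0.381, 0.452 and 0.398). The pkl difference of AT4G16190 was -0.67 ± 0.13 with solvent and -0.14 ± 0.13 with uniconazole. That of AT4G33960 was -0.69 ± 0.13 and -0.17 ± 0.13. None of these genes passed the adjusted threshold.

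Apart from the group means, the spread within groups gives each gene's own variation, and correlations between genes show how far members moved together. The within-group SD of log2(signal + 16) had a median of 0.30 in the pkl-higher set and 0.37 in the pkl-lower set, against 0.20 over the locus-only probe sets. Deviations from the group means, correlated over 24 arrays, had a median r of 0.0946 over the 946 pairs of the pkl-higher set and 0.0663 over the 435 pairs of the pkl-lower set. Between the sets the median was 0.0138 over 1320 pairs, and over all locus-only pairs it was 0.0182. The pairs share arrays, and the values are given as a description. Dim genes were frequent in the pkl-lower set, where 40.0% had no group mean of 220 or more, against 25.0% in the pkl-higher set and 17.7% of the locus-only probe sets. Group means at or under the background level occurred in 8 genes of the pkl-lower set and 4 of the pkl-higher set.

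The members were scattered over the genome. All 74 were placed in the RefSeq gene table, on all 5 nuclear chromosomes. Of 74 measured genes directly beside 57 of the members, 25 had both signs in common with the member, and 0 of these 25 passed the cutoffs. The share of all probe sets with such signs is not given, so nothing is read from the 25. The size cutoffs were passed by 4 neighbours, all of them higher under both factors. The closest pair of members, AT3G55680 and AT3G55720 with 3 genes between them, belonged to opposite sets. The pkl-higher set held 3 annotated pseudogenes (6.82%, against 1.38% of the locus-only probe sets), and the pkl-lower set held 0.

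Genes at the edge of the cutoffs differed little from those just beyond it. In the pkl-higher set AT2G37540, AT5G25490 and AT4G25900 were just inside, with mean pkl effects of 0.41, 0.46 and 0.54 and mean uniconazole effects of -0.42, -0.40 and -0.40. AT1G58070, AT3G44400 and AT3G19030 were just outside, with mean pkl effects of 0.399, 0.60 and 0.39 and mean uniconazole effects of -0.70, -0.396 and -0.50. In the pkl-lower set AT4G17410, AT3G22240 and AT4G16190 were just inside, with smaller effects of 0.42, 0.41 and 0.41 in size. AT3G21670, AT5G01790 and AT5G51890 were just outside, with mean pkl effects of -0.397, -0.51 and -0.81 and mean uniconazole effects of 1.15, 0.39 and 0.39.

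The gibberellin pathway gives the setting for the uniconazole side. Of 10 signalling genes listed, 5 had a named probe set, and the listed synthesis and inactivation genes were not analysed here. With uniconazole 4 of the 5 were higher in wild type and in pkl in the limma fit, namely the receptors GID1A and GID1B, the F-box gene SLY1 and the RING-type gene XERICO, and GID1C did not pass. The shares of all probe sets passing as higher were 9.07% in wild type and 11.4% in pkl. In pkl, GID1A and SLY1 were higher in both media (6.78% and 9.87% of all probe sets) and GID1B was lower in both (4.97% and 8.69%). GID1B thus had the opposed pattern of the pkl-lower set among genes with a symbol, with a mean pkl effect of -0.55 and a mean uniconazole effect of 1.59. Its signals ran from 158 to 247 (median 192) in wild type and 89.5 to 196 (median 121) in pkl with solvent, and from 434 to 759 (median 650) and 337 to 524 (median 431) with uniconazole.

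The 20 genes with a symbol that met the same cutoffs are named here, and those given with values were picked out after their values were seen. Lower in pkl and higher with uniconazole were LHCB4.2, a light-harvesting antenna protein, with effects of -1.02 and 1.07, and PORB with -0.95 and 0.45. CHL had the largest mean pkl effect of the 20 in size, -2.34, beside a uniconazole effect of 0.59. SBT4.12, CHX16, SOL1, TROL, AGO7 and SP1L2 complete the 11 in that direction with GID1B and XTH32. The same direction held for XTH32, a xyloglucan-modifying enzyme, with -1.38 and 0.97. Higher in pkl and lower with uniconazole were EXLA1, an expansin-like cell wall protein, with 0.71 and -0.84, XTH33 with 0.67 and -1.03, and PRX52, a peroxidase, with 1.66 and -0.64. The others of the 9 in that direction were sks15, GSTU26, IQD19, ALC, GRX480 and WES1. The XTH family thus had a gene in each direction.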

How the data were processed

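Transcripts were measured on 24 ATH1 arrays, 6 per group, grouped by their labels. The deposited table holds linear intensities per probe set, made by the authors with MAS5 per the submitters' processing notes, with version and settings not given in the sources used here. Trimmed by 2% at both ends, every array averaged 1000.1, so the authors had scaled the intensities. Of 22810 probe sets, 64 controls were left out and 22746 tested. GEO's platform annotation paired 13513 with 1 gene, and 13436 of these were found in a RefSeq gene table (assembly TAIR10.1). The deposited table names no build, so no coordinates are given.

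Values were used as log2(signal + 16). The offset understates changes of dim probe sets. All groups entered 1 limma 3.58.1 fit in R 4.3.3 (lmFit and eBayes, trend = TRUE, 20 degrees of freedom for the residuals), and two-sided p-values were Benjamini-Hochberg adjusted over the 22746 probe sets, with a threshold of 0.05. Every adjusted p is from this fit. Background is the 95th percentile, 54.9, of 648 values from 27 bacterial control probe sets, and a fold against a group mean at or under it is a lower bound. The number of arrays limits the precision.

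The members and lists were chosen with earlier results of these data known. The text names, per set, the 15 genes with the largest smaller-of-both effects, the 5 brightest, the 3 just inside and the 3 just outside the cutoff, and any with an adjusted interaction p under 0.05 (0 genes). Others were chosen after their values were seen. Alternatives covered the offset, scaling, signal minimum, cutoff, variance trend, GAPDH and actin 3′/5′ covariates, replicate block and leaving out each array. Grouping by product name and a promoter motif search were not run.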

Additional observations from a re-analysis of the deposited data

Results flagged for a closer look

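In 160 groups of 6 arrays of the named genes, the highest or lowest array stood apart from the other 5 by a Dixon test at the 95% level in 12, where chance flags about 1 in 20, or 8. AT4G09480 had 1 wild type array with solvent at 207.8, against 119.9 to 128.9 on the others. With uniconazole, pkl arrays stood low at 64.9 in AT1G74440 (others 110.6 to 142.5), at 68.2 in AT1G10530 (others 163.6 to 204.5), at 53.6 in AT3G45530 (others 116.6 to 170.6) and at 7.9 in AT1G44050 (others 45.2 to 76.6). The low arrays of AT1G74440, AT3G45530 and AT1G44050 were all replicate 3. AT3G45530 also had a wild type array with uniconazole at 22.4 (others 79.3 to 137.3), and AT1G44050 a wild type array with solvent at 68.5 (others 111.2 to 126.3).

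AT5G48490 was low on replicate 1 of wild type with solvent, at 54.4 (others 126.3 to 196.5), and on replicate 1 of pkl with solvent, at 10.7 (others 69.8 to 89.5). Among pkl arrays with solvent, AT1G24530 had 1 at 195.8 (others 257.9 to 292.1) and AT5G05900 had 1 at 60.8 (others 10.2 to 15.7). AT4G16190 had 1 pkl array with uniconazole at 2866.4 (others 3146.3 to 3309.2).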

How the results depend on the processing

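The size of the sets follows the cutoffs. The pkl-higher set of 44 genes held 28 with an offset of 64, 98 with a cutoff of 0.3 and 24 with a cutoff of 0.5, and the pkl-lower set of 30 held 13, 58 and 15. Without a minimum signal the pkl-lower set held 54, and with a minimum of 220 it held 18. With arrays scaled to 1 median, 38 of the 44 and 24 of the 30 genes remained, and with quantile normalization 39 and 26. Leaving out each array in turn gave 35 to 53 and 27 to 36 genes, and 26 of the 44 and 16 of the 30 were kept in all 24 runs. The interaction passed for 32 of all probe sets, for 20 without a variance trend, for 29 with 3′/5′ ratios as covariates and for 15 to 39 with 1 array left out; for the 74 genes it was 0 throughout. The lowest count, 15, came without pkl replicate 4, and counts under 22 also came without wild type replicates 4 or 5, pkl replicates 2, 3 or 5, treated wild type replicates 1, 2 or 6, or treated pkl replicates 2 or 4. The cause was not tested. With an offset of 64 the mean pkl effect of AT1G44050 was -1.11 and the mean uniconazole effect of AT3G61920 was 0.78. The labels do not tie replicate numbers to a shared batch, and not every pair of same-numbered arrays correlated over 0.1. The arrays were not treated as paired, although same-numbered arrays correlated over 0.1 more often than others, and a shared set effect was not tested. Correlations of same-numbered arrays of different groups were over 0.1 in 13 of 36 pairs (-0.18 to 0.39, median 0.06), against 34 of 180 pairs with different numbers (median -0.01). With the replicate block the interaction passed for 33 probe sets and 0 of the 74 genes. All SEs and the passing counts of the simple differences come from the fit without that block. Signals near background limit the dim genes.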
